A study of Mus musculus with 2 samples.

Results

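CTCF peaks whose summit lay inside protein-coding sequence were described in newborn mouse midbrain. The members were the peaks of the optimal list on chromosomes 1 to 19 with a summit in a coding interval of a protein-coding gene (GENCODE M21) and more than 1 kb from every annotated transcript start. There were 1120 such peaks, 1.67% (95% Wilson interval 1.58 to 1.77) of 66972 autosomal peaks and part of 68603 in all. A further 1229 peaks with a summit in coding sequence lay within 1 kb of a start and were not members. The series holds chromatin immunoprecipitation and sequencing (ChIP-seq) with an antibody to CTCF, on the midbrain of B6NCrl mice aged 0 days. It has 1 group of 2 replicates, no genotype or treatment is named, and sex was not collected. The labels give both replicates 1 biosample and 1 donor, and differences between them may therefore be technical only. Peak lists hold no expression values, so the labelled tissue could not be set against marker genes.

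The zinc fingers of CTCF recognise a long DNA motif that has a direction. With the cohesin ring it holds chromatin loops and the borders of chromatin domains. Inside a coding exon the bases of its motif also spell codons, and at the exon's edge they can overlap splice signals. CTCF bound within genes has been studied as a barrier to RNA polymerase and as an influence on splicing. Nothing in peak lists measures either.

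The 6 strongest peaks with a motif wholly inside the coding exon are shown first, with the strongest one of each of the 6 ways in which a motif can lie on the reading frame. Together these are 9 peaks. Each line gives the coding strand, 5′ to 3′, on mm10, and capitals mark the 20 bases matched by the CTCF weight matrix. The 20 bases to each side can run past the coding part of the exon. The leading bases of the matrix, read on its G-rich strand, were TGGCCACCAGGGGGCACCAG when learned on odd-numbered chromosomes and TGGCCACCAGGTGGCACTAG on even-numbered ones.
Gdf15, chr8:70629871-70629930, gene on the minus strand: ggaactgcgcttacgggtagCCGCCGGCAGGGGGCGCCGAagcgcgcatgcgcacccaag
A830031A19Rik, chr11:24049371-24049430, gene on the minus strand: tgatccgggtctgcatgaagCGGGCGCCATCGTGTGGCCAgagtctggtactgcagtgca
Zfp219, chr14:52008973-52009032, gene on the minus strand: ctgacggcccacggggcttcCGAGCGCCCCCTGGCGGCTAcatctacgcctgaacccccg
Srcin1, chr11:97531836-97531895, gene on the minus strand: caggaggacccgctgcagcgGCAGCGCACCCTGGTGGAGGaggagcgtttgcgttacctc
Dglucy, chr12:100841383-100841442, gene on the plus strand: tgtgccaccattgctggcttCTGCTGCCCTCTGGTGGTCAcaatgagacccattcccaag
Lrrk1, chr7:66300861-66300920, gene on the minus strand: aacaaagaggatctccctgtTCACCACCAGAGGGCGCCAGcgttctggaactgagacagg
Trmu, chr15:85896465-85896524, gene on the plus strand: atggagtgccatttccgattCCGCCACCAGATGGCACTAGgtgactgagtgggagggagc
Gramd4, chr15:86135408-86135467, gene on the plus strand: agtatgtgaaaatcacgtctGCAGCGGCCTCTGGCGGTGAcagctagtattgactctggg
Ube2cbp, chr9:86451880-86451939, gene on the minus strand: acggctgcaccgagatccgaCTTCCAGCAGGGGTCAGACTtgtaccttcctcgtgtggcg
In Gdf15, Lrrk1, Trmu and Ube2cbp the G-rich strand of the motif was the coding strand, and in A830031A19Rik, Zfp219, Srcin1, Dglucy and Gramd4 it was the other strand. The 20 bases held 4 CpG dinucleotides in Gdf15 and 3 in both A830031A19Rik and Zfp219, while the matches of Dglucy and Ube2cbp held none.

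The second set is shown because its motifs lie across a splice junction. They are the 4 such peaks among the 15 of highest signal. The first pair of lines crosses a splice donor, where the exon ends, and the second pair crosses a splice acceptor, where it begins.
Dnaic1, chr4:41614312-41614371, gene on the plus strand: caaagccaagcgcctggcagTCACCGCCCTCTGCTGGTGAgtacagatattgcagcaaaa
Kif13a, chr13:46798318-46798377, gene on the minus strand: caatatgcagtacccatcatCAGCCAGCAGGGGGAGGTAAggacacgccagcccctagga
Ksr1, chr11:79030647-79030706, gene on the minus strand: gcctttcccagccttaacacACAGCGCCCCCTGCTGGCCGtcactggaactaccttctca
Cog3, chr14:75722162-75722221, gene on the minus strand: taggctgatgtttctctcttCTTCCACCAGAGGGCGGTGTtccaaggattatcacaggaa
In Dnaic1, Ksr1 and Kif13a, 16 of the 20 motif bases were coding, and in Cog3 10 were.

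The strongest coding exon peak lay in the last exon of Gdf15 (exon 3 of 3), which encodes a stress-induced cytokine of the TGF-beta family. Its signal value was 599 in the optimal list, 305 in replicate 1 and 294 in replicate 2. The signal value is the authors' own number for a peak. The sources used here do not state its scale, and it serves only to rank and describe peaks. Next came exon 3 of A830031A19Rik (550, with 295 and 254 in the replicates) and exon 3 of Zfp219, a zinc finger transcription factor (513, with 271 and 245). The peak in exon 11 of Dnaic1, which encodes a dynein intermediate chain of motile cilia, had 511, with 266 and 244. These 4 peaks ranked at percentiles 99.5 to 99.9 of autosomal peaks in the optimal list.

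Other peaks among the 15 strongest lay in genes of unlike function. Ksr1, a scaffold of the RAS and MAP kinase pathway, had a signal of 498 (257 and 243). Kif13a, a kinesin motor, had 497 (257 and 243). Srcin1, an adaptor that restrains Src kinase, had 492 (261 and 231), and Dglucy, a mitochondrial enzyme that acts on D-glutamate, had 491 (248 and 244). Trmu, which modifies mitochondrial tRNAs, was 1 of 2 among the 15 with the higher value in replicate 2 (232 against 245). The other was A630076J17Rik (465, with 233 and 234). Lrrk1, a leucine-rich repeat kinase, had 483 (253 and 232), Def6, a guanine nucleotide exchange factor, had 476 (241 and 234), and Gramd4 had 469 (247 and 226). Pgls, an enzyme of the pentose phosphate pathway, had 468 (238 and 230.0), and Cog3, a subunit of a Golgi tethering complex, had 459 (244 and 213). All 15 peaks held a CTCF motif and all 15 were in the conservative list.

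Over all members the signal value ranged from 8.06 to 599, with a median of 73.8 and quartiles of 37.4 and 172. Replicate 1 listed 1113 of the 1120 peaks, with a median of 42.5 (6.30 to 305), and replicate 2 listed 1104, with a median of 31.9 (3.45 to 294). Both lists held 1099 of them (98.1%, interval 97.2 to 98.8), with a summit within 100 bp counted as the same peak. Spearman's rho between the replicates was 0.946 over these 1099 peaks, as a description, since peaks share libraries, and it was 0.942 across 23986 intron peaks. The median log2 ratio of replicate 1 to replicate 2 was 0.34. Of all 1120 members, 1039 (92.8%) lay within 2-fold of the median ratio of all autosomal peaks. Members without a ratio counted as outside. Against intron peaks the log2 ratio differed by 0.029 on average over 19 autosomes (SD 0.065, higher on 12 of 19; two-sided exact sign-flip test, p = 0.0607, adjusted p = 0.0867), which did not pass the threshold of 0.05. It passed in 4 of 7 alternatives, at 0.030 to 0.049, and was 0.033 in the conservative list (higher on 15 of 19, same exact test, adjusted p = 0.00718).

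**Figure D1:**
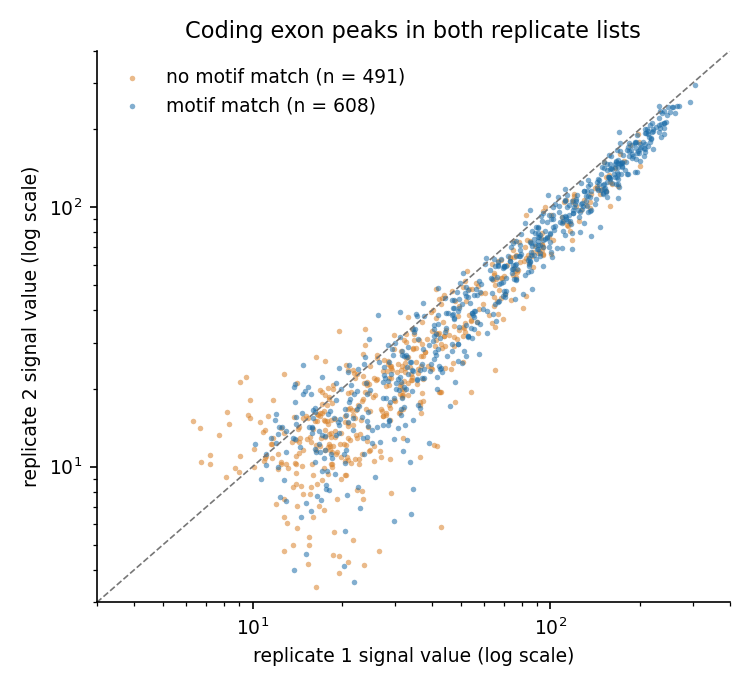
Signal value of each coding exon peak in replicate 1 (x axis, log scale) and replicate 2 (y axis, log scale), for the 1099 peaks in both lists, with points coloured by whether a CTCF motif lies within 50 bp of the summit. The dashed line marks equal values. Most points lie below it, as the median log2 ratio of 0.34 states, and the peaks with a motif reach the highest values.

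Differences in rank between the replicates were taken only for peaks in both lists. The 3 largest in each direction were at peaks with optimal list signals of 30.3 to 49.7, below the member median of 73.8. In Rsf1, a chromatin remodelling factor, the signal was 9.52 in replicate 1 and 22.1 in replicate 2, and in Socs5, a suppressor of cytokine signalling, it was 9.08 and 21.1. A peak in exon 77 of Syne1 had 12.7 and 22.7. The reverse held in Cbarp, a regulator of calcium channels (43.0 in replicate 1 and 5.85 in replicate 2). It also held in Slc24a2, a sodium, calcium and potassium exchanger (34.0 and 6.55), and in the keratin gene Krt77 (34.6 and 8.22). Of these 6 peaks only those of Slc24a2 and Krt77 held a motif.

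The threshold of 1 kb from a start has members close to it. Just outside lay Hcrt, which encodes the orexin precursor (1001 bp, signal 282), Sfpq, a splicing factor (1008 bp, 142), and Cd5, a T cell surface protein (1011 bp, 21.01). Just within, and so left out, lay Zfp36l2, an mRNA decay factor (1000 bp, 36.4), Neurl1a, a ubiquitin ligase (991 bp, 28.0), and Nab2, a corepressor of EGR factors (986 bp, 37.1).

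Coding exons held more peaks per base than introns, and fewer when introns were weighted to the same GC content. Per Mb of sequence there were 46.7 peaks in 23.98 Mb of coding sequence and 29.5 in 825.82 Mb of intron, with 24353 intron peaks counted by the same distance from starts and outside every exon. The mean log2 ratio over the 19 autosomes was 0.67 (SD 0.26), a 1.59-fold higher density, and the ratio was above 0 on 19 of 19. The exact sign-flip test over autosomes as blocks, two-sided, gave p = 3.81e-06, the smallest it can give, and an adjusted p of 1.91e-05 over 10 tests. Autosomes are blocks of 1 data set and not biological replicates, so this p measures only how evenly the difference runs over the genome. The sequence around coding peaks was richer in GC, with a median of 58.4% within 50 bp of the summit against 50.5% in introns. That difference averaged 7.63 percentage points (SD 1.56, higher on 19 of 19; two-sided exact sign-flip test, adjusted p = 1.91e-05). When introns were weighted to the GC classes of coding sequence, an alternative added after the data were seen, the log2 ratio became -0.23 (SD 0.26, above 0 on 5 of 19; exact sign-flip test, adjusted p = 0.00356). Coding density was then 0.852 times that of introns.

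The classes of GC show where the sign turned. Where the sequence within 50 bp held under 45% GC, coding exons had 7.24 peaks per Mb and introns 9.88. From 45 to 50% the values were 27.6 and 39.5, from 50 to 55% they were 41.1 and 66.5, and from 55 to 60% they were 58.8 and 87.4. In these 4 classes coding exons had the higher density on no more than 4 of 19 autosomes. From 60 to 65% the values were 96.5 and 110.1, with coding exons higher on 9 of 19 autosomes. At 65% and over coding exons had 272 peaks per Mb against 122 in introns, a ratio of 2.22, and were higher on 18 of 19. That class was 3.83% of coding bases and held 250 coding peaks, 22.3% of the members. Its peaks had a median of 9 CpG dinucleotides within 50 bp of the summit, and 44.8% held a motif, less than in any other class of coding peaks.

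**Figure D2:**
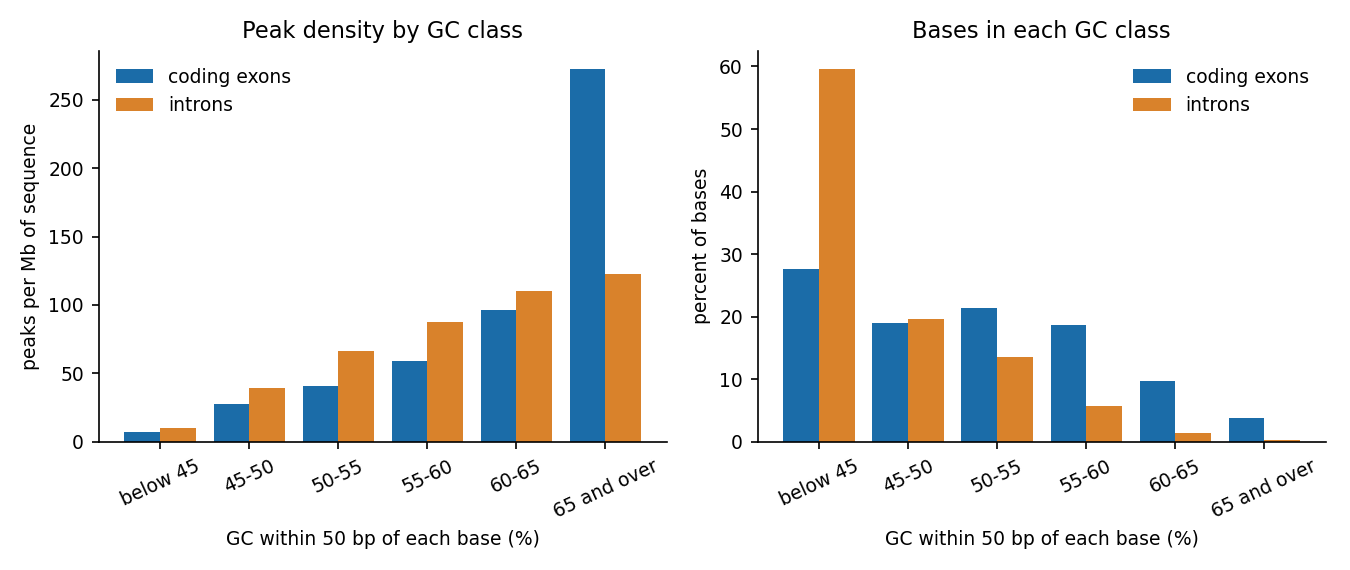
Left, CTCF peaks per Mb (y axis) of coding exons and introns in 6 classes of GC content within 50 bp (x axis). Right, the percent of coding and intron bases in each class. Coding bars are lower than intron bars in the 5 classes under 65% GC and higher in the last (272 against 122), and 59.5% of intron bases lie in the class under 45% against 27.6% of coding bases.

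A CTCF motif was found at fewer coding exon peaks than intron peaks. Matches were called at 1e-05 or less, with the centre at most 50 bp from the summit. This is the chance of such a score at 1 position of 1 strand, in random sequence with the base composition of the autosomes. Both strands were scanned. Of the members, 613 (54.7%, interval 51.8 to 57.6) held one, against 15871 of 24353 intron peaks (65.2%). The mean difference over autosomes was -10.4 percentage points (SD 7.08, higher on only 2 of 19; two-sided exact sign-flip test, adjusted p = 0.000102). With introns weighted by GC it was -8.62 (higher on 3 of 19, adjusted p = 0.00047), and with soft-masked repeats left out it was -4.80 (5 of 19, adjusted p = 0.0120), by the same exact test. Both were added after the data were seen. With a looser match of 1e-04 the call was lost, at -3.13 (5 of 19, same exact test, adjusted p = 0.0616). Members with a motif had a median signal of 123.1, and the 507 without had 49.7. A summit at the identical base was in the conservative list for 91.8% of members with a motif and 81.5% of those without. These shares can understate presence in that list, which by itself gave 1075 coding exon peaks, 597 with a motif.

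The rank of signal gave no settled difference between coding and intron peaks. The median percentile differed by 1.53 points (SD 5.96, higher on 12 of 19; two-sided exact sign-flip test, p = 0.275, adjusted p = 0.305). Among the stronger 50% of optimal peaks it was -5.14 (higher on 4 of 19, same exact test, adjusted p = 0.0375). Only 40 members (3.57%) had a summit in a soft-masked repeat, against 26.9% of intron peaks, and intron peaks in repeats had a median signal of 51.5 against 88.6 outside them. Outside repeats the difference was -4.26 points (higher on 4 of 19, same exact test, adjusted p = 0.0120). Among peaks with a motif, the difference was 4.20 points (SD 8.37, higher on 15 of 19; two-sided exact sign-flip test, adjusted p = 0.0722) with all sequence and -6.24 (4 of 19, adjusted p = 0.00252) outside repeats. The first value passed the threshold in 4 alternatives of the same direction, such as the conservative list (4.09, 14 of 19, same exact test, adjusted p = 0.0385).

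**Figure D3:**
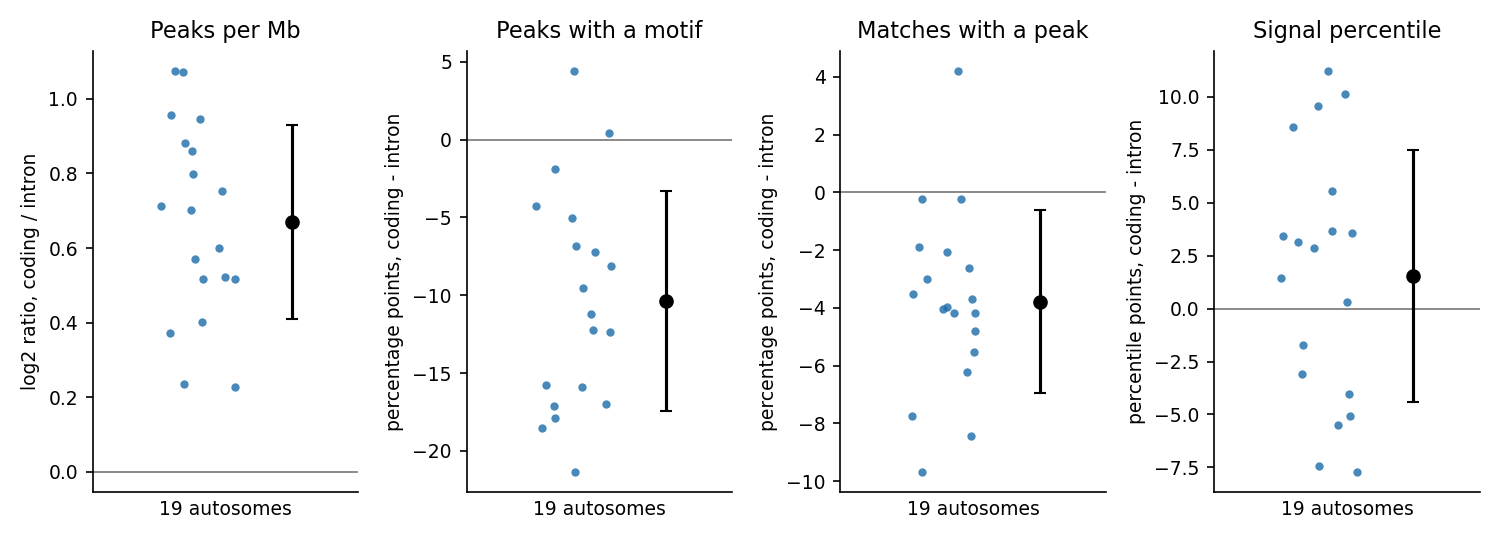
Coding minus intron differences on each of the 19 autosomes (points), with the mean and SD (black), for peaks per Mb (log2 ratio), the share of peaks with a motif, the share of motif matches with a peak (both percentage points) and the signal percentile (points). All 19 density ratios lie above 0, only 2 of the motif shares and 1 of the shares of matches with a peak do, and the signal percentiles lie on both sides.

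Starting from the motif matches instead of the peaks, 3537 matches were found in coding sequence, 147 per Mb, and 75536 in introns, 91.5 per Mb. From the lowest to the highest GC class, matches per Mb rose from 29.1 to 568 in coding sequence and from 51.8 to 421 in introns. A peak summit lay within 50 bp of 612 coding matches (17.3%, interval 16.1 to 18.6) and of 16120 intron matches (21.3%). The difference averaged -3.78 percentage points (SD 3.16, higher on 1 of 19; two-sided exact sign-flip test, adjusted p = 0.000362). With the stronger 50% of peaks the call was lost, at -1.16 (higher on 6 of 19, same exact test, adjusted p = 0.0838), and with looser matches of 1e-04 the difference was -1.12 (2 of 19, adjusted p = 0.000178). Outside repeats the shares were 17.4% and 26.9%, and the difference was -9.30 points, below 0 on 19 of 19 autosomes. A match without a listed peak is not shown to lack CTCF, since read depth is not given in the sources used here.

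The share with a peak was higher for stronger matches. Of 2911 coding matches with p between 1e-05 and 1e-06, 10.7% had a peak, against 11.5% in introns. Between 1e-06 and 1e-07 the shares were 37.3% (interval 33.1 to 41.6) and 47.9%. Of the 135 strongest coding matches, with p of 1e-07 or less, 118 had a peak (87.4%, interval 80.8 to 92.0), against 81.7% (80.6 to 82.8) in introns. The intervals cover counting error only. For the strongest matches the 2 intervals overlapped, and in the middle class they did not.

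CpG dinucleotides, the sites of DNA methylation, were present in 49.9% of coding matches and 26.5% of intron matches. In coding exons 14.1% of matches without a CpG had a peak, 19.7% of those with 1 and 22.2% of those with 2 or more. In introns the values were 19.5%, 26.3% and 26.4%. Matches with a CpG exceeded those without by 6.33 points on average in coding exons (SD 8.56, higher on 13 of 19 autosomes) and by 6.49 in introns (SD 2.06, 19 of 19). Methylation was not measured.

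The frame of the motif on the codons was described in 6 classes, by strand and by the codon position of the motif's first base on the coding strand. Among 2602 matches wholly inside coding exons and without a peak, the leading class had the motif on the coding strand and its first base at codon position 3, with 24.1%. Among 524 peaks with such a match the class had 24.4%. The mean difference was 0.30 points (SD 9.39, higher on 10 of 19; two-sided exact sign-flip test, adjusted p = 0.890). Beyond 5 kb from starts it was -5.92 (higher on 6 of 19, same exact test, adjusted p = 0.0392). Shares of matches with a peak ran from 14.3% (interval 11.6 to 17.6; coding strand, position 1) to 21.5% (17.9 to 25.7; other strand, position 2). The matches themselves were uneven, with 219 in the coding strand class at position 2 and 758 in that at position 3. The motif's G-rich strand was the coding strand in 283 of 601 members (47.1%), against 49.3% in introns. That difference averaged -2.60 points (SD 8.16, higher on 7 of 19; two-sided exact sign-flip test, adjusted p = 0.224). At 500 bp from starts it was -3.43 (7 of 19, same exact test, adjusted p = 0.0375).

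**Figure D4:**
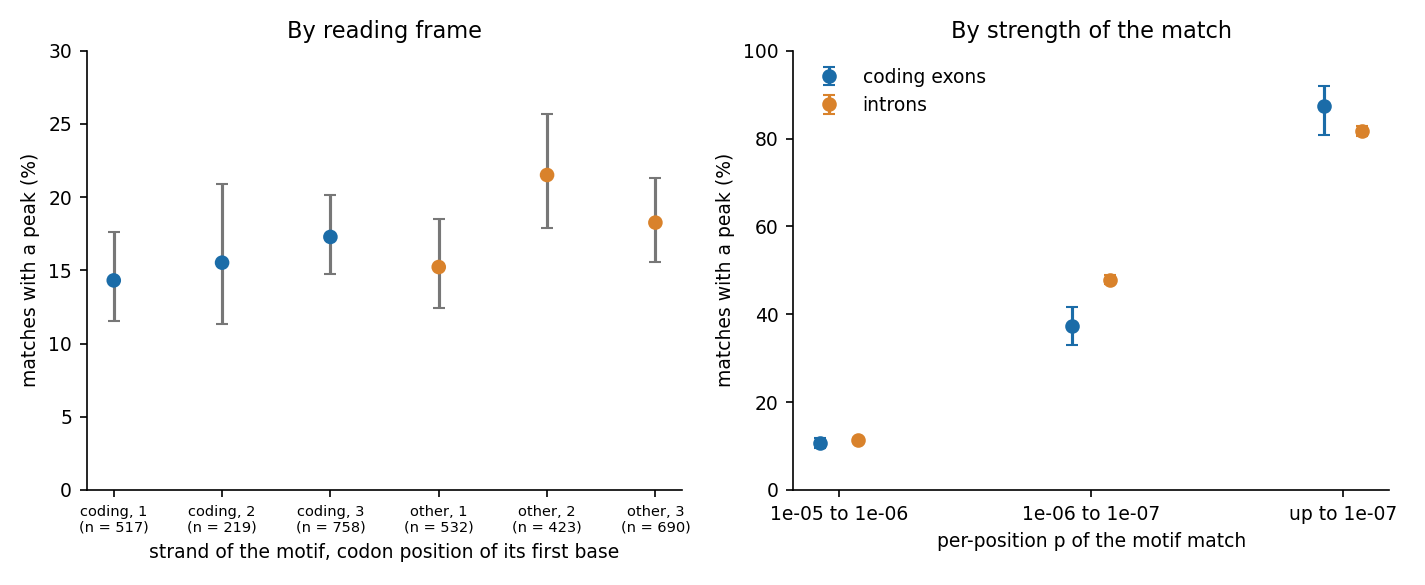
Share of CTCF motif matches in coding exons with a peak within 50 bp (y axis, percent, with 95% Wilson intervals). Left, by strand of the motif and codon position of its first base, with matches of all strengths together, from 14.3% to 21.5%. Right, by per-position p of the match, in coding exons and introns, rising from 10.7% to 87.4% and from 11.5% to 81.7%.

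Many summits lay close to an exon edge, though not more often than coding bases did at a distance of 25 bp. The median coding part of an exon with a summit was 204 bp and the median peak width was 310.0 bp. The upper quartile of width was also 310.0 bp, and both values were the same in intron peaks. How many peaks reached past their exon was not counted. The summit was within 50 bp of the edge in 530 peaks (47.3%) and within 25 bp in 297 (26.5%). Where 25 bp on either side of the summit were also coding, there were 837 peaks in 17.2 Mb. That is 48.5 per Mb, against 46.7 over all coding sequence. The share of coding bases within 50 bp of an edge was not counted. Of the 613 motifs, 535 lay within the coding exon, 71 across an edge and 7 outside it. Matches that crossed an edge had a peak in 109 of 542 cases (20.1%, interval 17.0 to 23.7), and those wholly inside in 537 of 3139 (17.1%, 15.8 to 18.5). Across splice acceptors, matches on the coding strand had a peak in 56 of 197 cases (28.4%, 22.6 to 35.1). The same strand across splice donors gave 8 of 88 (9.09%, 4.68 to 16.9). On the other strand the shares were 27 of 163 (16.6%) for acceptors and 12 of 58 (20.7%) for donors. Median match scores on the coding strand were 11.82 for acceptors and 10.975 for donors, and on the other strand 11.23 and 11.08. The shares were not compared at like score, the counts are small, and no test over autosomes was made.

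Exon length and order were described next. Coding exons over 500 bp held 51.3 peaks per Mb and shorter ones 45.1. The mean log2 ratio was 0.25 (SD 0.48, above 0 on 12 of 19; two-sided exact sign-flip test, adjusted p = 0.0705), which did not pass the threshold. It passed in 5 of 9 alternatives and was negative in another of them, 5 kb from starts (-0.37, above 0 on 4 of 19, same exact test, adjusted p = 0.0392). By length the density was 42.6 per Mb up to 100 bp, 41.5 from 100 to 200 bp, 54.7 from 200 to 500 bp, 58.1 from 500 to 1000 bp and 47.4 above. Last coding exons had 61.8 peaks per Mb and internal ones 40.03, with last exons higher on 17 of 19 autosomes. First coding exons had 68.9 and single coding exons 66.9, and they were higher than internal ones on 16 and 14 of 19. Only sequence beyond 1 kb of a start was counted, 0.987 Mb of first, 1.12 Mb of single and 17.2 Mb of internal coding exons. The classes were not compared at like distance from a start. The share of peaks with a motif was 41.2% in first, 58.6% in internal, 51.7% in last and 42.7% in single coding exons.

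The members lay in 1030 of 18132 autosomal protein-coding genes with coding sequence beyond 1 kb of a start (5.68%). Of these genes 946 held 1 peak, 79 held 2, 4 held 3 and 1 held 4. The share of genes with a peak followed the length of their coding sequence beyond 1 kb of a start, which can be less than their full coding length. It rose from 1.46% in the 20% of genes with the least such sequence to 12.2% in the 20% with the most. Peaks per Mb were 68.0 and 40.7. The gene with 4 peaks was Syne1, which encodes a giant nuclear envelope protein that links the nucleus to the cytoskeleton. Its signals were 77.2, 35.2, 32.2 and 19.9, in exons 47, 77, 55 and 125 of 146, and only the first held a motif. Syne2, its paralog, had 3 peaks (240.1, 41.6 and 24.7), none with a motif. Flt4, a receptor of lymphatic endothelial growth factors, had 3 (189, 65.6 and 40.3), and Nrp2, the semaphorin receptor neuropilin, had 3 (120.3, 96.1 and 31.1). The 3 peaks of Tmem200c had signals of 127, 51.5 and 8.98. Neither replicate list held a summit within 100 bp of the weakest, while the conservative list held it. The intervals of the 2 weaker Tmem200c peaks overlapped, as did those of the 2 weaker Nrp2 peaks. Members lay nearer to another peak than intron peaks did, at a median of 4661 bp against 6536 bp.

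Density varied between chromosomes. Chromosome 19 had 66.5 coding peaks per Mb, chromosome 15 had 60.5 and chromosome 8 had 59.2, while chromosome 2 had 34.7. The most peaks, 107, lay on chromosome 11.

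Gene families were then counted by lists of symbols, beside the 5.68% of all genes and the 46.7 peaks per Mb of all coding sequence. Only autosomal genes with coding sequence beyond 1 kb of a start were counted, so some families are larger than the numbers given. No list was tested or matched for GC content, and coding density ran from 7.24 to 272 per Mb over the GC classes. Rates of short lists rest on few peaks, such as 6 on 26.8 kb for the Notch list. Of developmental signalling genes, 5 of 9 Notch receptors and ligands held a peak (55.6%, 223 peaks per Mb). The strongest was in Notch3, a receptor of vascular smooth muscle (267, with 144 and 128 in the replicates), and others lay in Notch4 (68.9), Dll3 (50.5), Notch2 (49.6 and 21.4) and Jag1 (32.6). Of 29 Wnt ligands and Frizzled receptors 6 held a peak (20.7%, 232 per Mb), led by Fzd7 (318), Wnt10a (220.1) and Fzd8 (167 and 88.1). Of 52 Sox and Fox transcription factors 8 held a peak (15.4%, 160 per Mb), led by Sox8 (330, with 195 and 137). Among 66 axon guidance genes 8 held one (12.1%, 65.7 per Mb), with Robo3, a receptor in midline crossing, at 208 and Robo4 at 169. Hox genes had 1 of 31 (3.23%, with 39 in the annotation), Hoxc10 (106). This is 90.7 per Mb, from 1 peak on 11.0 kb.

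Ion channels and neuronal genes followed. Of 87 potassium channel genes 12 held 14 peaks (13.8%, 124 per Mb), led by Kcnk15 (298), Kcnj9 (292), Kcnh4 (252) and Kcnj10 (203), the last the inward rectifier of astrocytes. Of 18 voltage-gated calcium and sodium channel genes 4 held a peak (22.2%, 59.8 per Mb), led by Cacna1b (171) and Cacna1a (160.8). Of 45 receptor genes for glutamate, GABA and glycine 6 did (13.3%, 71.2 per Mb), with Grm4 highest at 83.0. Of 22 dopamine neuron genes 3 did (13.6%), with 3 peaks on 23.3 kb (129 per Mb). They were the transcription factor genes Sox6 (80.6), Foxa1 (44.0) and En1 (39.3). Sox6 and Foxa1 are also in the list of Sox and Fox factors. Of 27 genes for neurexins, neuroligins and synaptic scaffolds 3 did (11.1%, 30.1 per Mb), with Unc13a, a factor that primes synaptic vesicles, highest at 196.

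Large structural and surface proteins gave mixed values, and their shares of genes and peaks per Mb differed in order. Adhesion G protein-coupled receptors had 5 of 25 genes (67.6 per Mb) and a median signal of 303 over 5 peaks, against 73.8 for all members. They were led by Adgrv1 (443, with 234 and 209), which is mutated in Usher syndrome, and Adgrd1 (443, with 241 and 201). Integrins had 3 of 30 genes (44.2 per Mb), led by Itgb7 (267). The LDL receptor family had 1 of 13 (16.2 per Mb), Lrp1 (142). Laminins had 2 of 11 (18.2% of genes, 32.6 per Mb), led by Lama1 (148), and collagens 2 of 42 (18.2 per Mb), led by Col16a1 (174). Atypical and seven-pass cadherins had 3 of 9 (33.3%, 51.6 per Mb), led by Dchs2 (49.95). Axonemal dyneins had 4 of 15, a share of 26.7% against 5.68% of all genes, but 22.7 peaks per Mb against 46.7. Dnah1 was highest (361). Myosin heavy chains had 3 of 14 (73.3 per Mb), led by Myh14 (160). Spectrins and ankyrins had 2 of 9 (49.3 per Mb), with Sptbn4 at 246 and Ank2 at 218.

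In 3 families with many copies coding exons held fewer peaks per Mb than the 46.7 of all genes. The 376 Zfp zinc finger genes had 14 genes with a peak (3.72%) and 25.2 peaks per Mb, led by Zfp219. Olfactory receptors had 1 of the 249 counted (11.3 per Mb), Olfr95 at 62.6, while the annotation of the autosomes holds 1087. Clustered protocadherins had 1 of 53 (13.3 per Mb), Pcdhgc3 at 117. Ribosomal proteins had 1 of 42 (80 in the annotation), Rps15 at 28.0, which is 125 per Mb on 8.03 kb. Replication histones had 0 of 5 (67 in the annotation) on 1.13 kb. Both are too little sequence to compare. Of 54 histone and chromatin modifiers 5 held a peak (9.26%, 24.8 per Mb), led by Kmt2a at 289. Of 17 genes of CTCF and cohesin machinery 1 did (5.88%, 23.6 per Mb), Nipbl, the cohesin loader, at 45.8. Both lists were above or near all genes in share and below them in peaks per Mb. In families with near-identical copies, reads can be split between copies or set aside, and how the authors placed them is not given in the sources used here.

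Keratins, the intermediate filament proteins of epithelia, had 9 of 48 genes with a peak (18.8%) and 238 peaks per Mb, with a median signal of 48.7. The strongest was in Krt88 (204, with 116 and 86.5). The 10 peaks of the list ran from 23.4 to 204, and 8 of them held a motif.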

How the data were processed

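The authors deposited 5 CTCF peak lists in narrowPeak format on mm10, per the deposited text notes: 1 for each replicate, 1 for both together, and the optimal and conservative lists, thresholded by the irreproducible discovery rate. Their signal values are the authors' and were not rescaled. Not given in the sources used here were the aligner, the peak caller, read depth, the signal scale and that threshold. No depth per sample can therefore be stated. Sequence was read from GRCm38.p6 and coding intervals from GENCODE M21, with Python 3.11.15, numpy 2.4.6, pandas 2.3.3, scipy 1.17.1 and numba 0.67.0. A CTCF weight matrix of 20 bp was trained separately on the 2000 top peaks of odd autosomes to scan even ones and on those of even autosomes to scan odd ones. Differences were tested over 19 autosomes with exact two-sided sign-flip tests, at a threshold of 0.05. Benjamini-Hochberg adjustment was over 10 tests, or 9 where a replicate was left out. Scripts were tested on simulated data. A description of 1 motif match shared by related genes is not reported here.

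Named peaks were the 15 of highest signal, those of genes with 3 or more, the strongest in each of 27 lists, the 3 most discordant between replicates in each direction, and the 3 nearest to 1 kb on either side. Sequences shown were the strongest of each frame class and the 6 strongest with a motif inside coding sequence. The splice junction set and further list members were chosen after values were seen. The members and lists were chosen with earlier results of these data known. Alternatives changed the peak list, the replicates used, the distance to a start, the coding annotation, the motif threshold and repeats.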

Additional observations from a re-analysis of the deposited data

How the results depend on the processing

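Tested and counted results stayed on their side of the threshold and kept their direction in 87 of the alternatives tried. Direction reversed in 15 and a count moved in 3. The threshold was newly passed in 19, of which 14 kept the direction and 5 reversed it, and was lost in 2. Of values for gene lists and named peaks, 243 stayed and 68 moved. The GC difference held in all 9 alternatives (5.81 to 9.04 points). The GC weighting, and the repeat exclusion except for density and matches with a peak, were added after seeing the data. The cause of a change was not tested.

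The density ratio (log2) was -0.23 with introns weighted by GC. With the stronger 50% of peaks, the signal percentile difference was -5.14 (newly past the threshold), that with a motif -4.39, the coding strand share 0.36, the share of matches with a peak -1.16 (exact test, adjusted p = 0.0838), the replicate log2 ratio 0.039, the number of members 544 and the share of genes 2.89%. With 25 bp either side of the summit in coding sequence, the signal difference was -0.34 and the frame class difference -1.03. Outside repeats, the signal difference was -4.26, that with a motif -6.24, long against short exons 0.29 and the replicate log2 ratio 0.049. At a motif p of 1e-04, the motif share difference was -3.13 (exact test, adjusted p = 0.0616) and the frame class difference -3.07, and within 20 bp of the summit the latter was -0.27. With 500 bp from a start, the signal with a motif was 4.46, the coding strand share -3.43, the frame class -0.38, long against short exons 0.37 and the replicate log2 ratio 0.030. With 5 kb, the frame class was -5.92, long against short exons -0.37 and the number of members 523. With principal transcripts, the signal with a motif was 4.64, the frame class -0.16 and long against short exons 0.35. In the conservative list, the signal with a motif was 4.09 and the replicate log2 ratio 0.033. The 4 values of the replicate log2 ratio and the 5 kb values of frame class and exon length were newly past the threshold, as were both signal differences outside repeats and the other values given for long against short exons. So were the values above of signal with a motif, except -4.39, and the coding strand share at 500 bp.

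With each replicate left out, the signal difference was -0.71 to 0.33, that with a motif 2.79 to 3.64 (past the threshold without replicate 1) and long against short exons 0.25 to 0.31 (past it in both). These settings also drop the thresholded list and its call on both replicates together. The replicate log2 ratio has no value there, and the 25 bp setting does not change the share of matches with a peak. No paired analysis was possible because there is 1 group. Depth is unknown, so weak or missing peaks cannot be told from low coverage.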
